A study of Rattus norvegicus with 25 samples.

Results

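The basolateral amygdala (BLA) of unstressed control rats was compared between animals whose composite anxiety-like behavior score was labelled low (control-low) and animals whose score was labelled high (control-high). The libraries were chosen by their labels, as BLA libraries of unstressed animals: animals 27, 28 and 35 for control-low and animals 14, 17 and 32 for control-high, 6 of the 25 libraries of the series. The question was which transcripts vary with baseline anxiety-like behavior when the stressor of the study was not applied.

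All animals were adult male Sprague-Dawley rats, labelled WT. Controls stayed in the home cage and received a cage change, while the stress groups underwent 3 h of immobilization with predator scent. Controls and stressed animals went through the same avoidance and startle tests. These tests gave the composite score before the brains were collected on day 9, with a higher score for more anxiety-like behavior. Poly-A RNA was sequenced from pooled punches of the left BLA of each animal. According to the labels, scores of the sequenced controls spanned 0 to 6, against 0 to 2 in the stress-low and 13 to 15 in the stress-high animals. As given, the low and high labels of the controls divide a range that lies wholly below the stress-high scores. That range was given for 6 control animals, while 7 BLA control libraries are listed, and which animals it covers is not stated. The score of each control animal was not given in the labels. The 3 stress-low and 3 stress-high BLA libraries entered the same fit to estimate the spread, and the dentate gyrus (DG) libraries of mostly the same control animals (2 control-low, 3 control-high) were set beside the BLA values.

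The BLA joins sensory information with emotional value and is best known for fear learning and avoidance. Most of its neurons are glutamatergic projection cells, held in check by a smaller population of GABA interneurons that also release neuropeptides such as neuropeptide Y and somatostatin. It borders the central amygdala, the striatum, the claustrum and the endopiriform nucleus, so that a tissue punch can take in a varying share of these neighbours together with glia, blood vessels and blood.

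A pair of control-low libraries needs a remark before the results. Animal 2, the remaining BLA control-low library, was left out because it stood apart in principal component analysis, with a position of 48.7 on the first component against -19.4 to 2.54 for the other 6 control libraries. It also carried 114 summed TPM (the level of a gene as a share of all transcripts, corrected for gene length) of leptomeningeal fibroblast markers, against 24.7 to 33.4 in the 6. The library of animal 35 was named as a low-score control, but its treatment field gave the stressor. It was kept as a control, as the DG library of this animal is labelled, and values without it are given beside several results. The DG library of animal 35 was itself left out of the DG comparison, whose control-low libraries came from animals 2 and 28. Of the 53 named gene models with an unadjusted p under 0.05, 15 no longer had one without animal 35 (0.0548 to 0.176, edgeR), with no change of sign. They were 14 list members (Cplx2, Rab3a, Hbb, Hcrtr2, Ermn, both models of Hspa1b, Kcnq3, Kcnj9, Kcnab3, Ndufaf1, Ndufaf4, Ndufb6 and Cox6b2) and the unnamed model ENSRNOG00000030704.

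Sequencing depth was similar in both groups, at 14274899 to 17165791 expected counts in control-low and 12709493 to 16699829 in control-high. Expected counts are estimates of how many reads came from each gene. The tissue carried the markers of the labelled region. Slc17a7, the vesicular glutamate transporter of projection neurons, stood at 977 ± 121 TPM in control-low and 1110 ± 66.1 in control-high (SD, n = 3), Nrgn at 1184 ± 255 and 1331 ± 195, and Sst of interneurons at 448 ± 124 and 464 ± 46.3. The granule cell marker Prox1 was at 2.27 to 2.93 TPM, and the summed choroid plexus and ependymal markers were at 0.29 to 0.67 TPM in the 6 libraries. Each library came from a separate rat.

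No gene separated the score labels after adjustment for multiple testing. Of 15230 genes tested with edgeR's quasi-likelihood test, 0 (0%) had an adjusted p under 0.05, and the smallest adjusted p was 0.997. An unadjusted p under 0.05 was found for 528 genes (3.47%), 255 higher (1.67%) and 273 lower (1.79%) in control-high. Bins of 0.05 in p would each hold 761.5 genes if filled equally, so the lowest bin was underfilled. DESeq2 called 3 genes, which are described below, and found 463 genes with an unadjusted p under 0.05. Without animal 35 the edgeR counts were 1 called and 578 unadjusted.

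**Figure D1:**
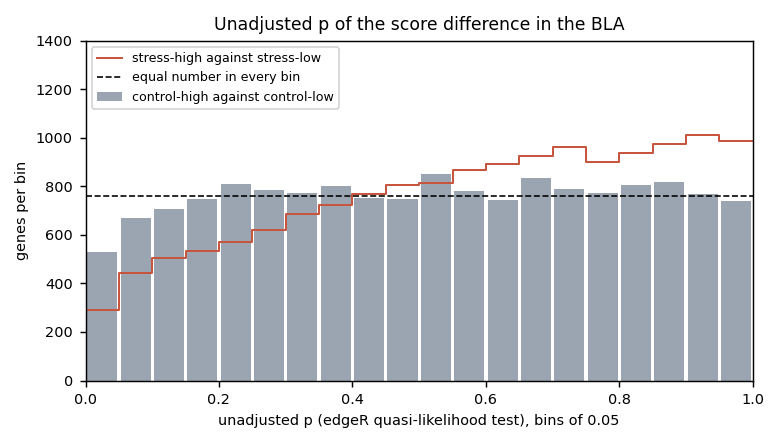
Number of BLA genes (vertical axis) in each bin of 0.05 of the unadjusted p (horizontal axis) for control-high against control-low (bars) and for stress-high against stress-low (line), with the number that an equal filling of all bins would give (dashed). The lowest bin held 528 genes for the controls and 289 for the stressed animals, both below the dashed line at 761.5.

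Whole-transcriptome distances gave the same picture. The root mean square difference in log2 CPM (counts scaled to library size) was 0.284 to 0.375 between a control-low and a control-high library (9 pairs, median 0.310). It was 0.306 to 0.346 between control-low libraries (median 0.329) and 0.281 to 0.354 between control-high libraries (median 0.341). Libraries of opposite labels were thus no farther apart than libraries that shared a label. Among the 6 libraries the first component separated animal 17 (35.3, against -14.8 to 2.22 for the others) and the second separated animal 27 (31.5, against -18.0 to 3.54), neither along the score label. Standard errors of the log2 fold changes had a median of 0.13 over the tested genes.

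The genes below are mainly those with the smallest unadjusted p, 12 in each direction, and members of gene lists with an unadjusted p under 0.05. Other members of the lists are named beside them, with their values known. They are reported as values, since none passed the adjusted threshold in the edgeR fit. The exact permutation test over 3 against 3 libraries cannot give a p below 0.1, and it gave that value wherever the groups did not overlap. TPM of the groups did not overlap for 919 genes (6.03%), for 466 genes once animal 2 was included, and for 1871 to 3419 genes when 1 of the 6 libraries was left out. In bulk tissue, fewer cells of a type and less RNA per cell cannot be told apart.

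Among neuropeptide receptor genes, Tacr3 had the smallest p. It encodes the neurokinin 3 receptor, the G protein-coupled receptor preferred by neurokinin B. Its level was 20.6, 13.4 and 17.5 TPM in control-low animals 27, 28 and 35, and 23.5, 27.9 and 32.6 TPM in control-high animals 14, 17 and 32. Every control-high library lay above every control-low library, by a log2 fold change of 0.70 ± 0.14 (SE; unadjusted p = 0.0002, edgeR). DESeq2 gave Tacr3 an adjusted p of 0.0152, whereas its adjusted p lay between 0.0152 and 1 over all alternatives. The library of animal 2, left out of the fit, stood at 34.1 TPM, above every control-high library. With it the log2 fold change was 0.45. The ligand gene Tac3 was at 50.7 ± 21.5 TPM in control-low and 41.2 ± 14.2 TPM in control-high, and the substance P receptor gene Tacr1 at 3.45 to 5.06 and 2.96 to 3.93 TPM. The log2 fold changes of Tac3 (-0.30 ± 0.32, and 0.10 without animal 35) and Tacr1 (-0.22 ± 0.19) were near their errors.

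The other peptide receptor with an unadjusted p under 0.05 was Hcrtr2, the orexin receptor type 2, at a low level. It stood at 0.75, 0.58 and 0.66 TPM in control-low and at 0.42, 0.42 and 0.41 TPM in control-high (log2 fold change -0.68 ± 0.29, unadjusted p = 0.0361, edgeR). In all, 2 of 29 tested neuropeptide receptor genes had an unadjusted p under 0.05 (3.47% of all genes), 1 in each direction, and their median log2 fold change was 0.06. Crhr1, the main receptor of corticotropin-releasing hormone, gave 0.19 ± 0.12, Oxtr of oxytocin 0.17 ± 0.32, and Oprk1 of dynorphin 0.11 ± 0.12.

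Among peptide precursors the gene for neuropeptide Y (Npy), which marks a class of interneurons and is known to oppose anxiety-like behavior in the amygdala, had the lowest unadjusted p. Npy was at 6.93, 16.9 and 27.6 TPM in animals 27, 28 and 35, and at 5.27, 6.78 and 6.95 TPM in animals 14, 17 and 32. The control-high libraries were uniformly low while the control-low libraries were widely spread, and animal 27 was level with the control-high animals. The log2 fold change was -1.48 ± 0.45 (unadjusted p = 0.0055, edgeR), and -0.98 without animal 35. The permutation test gave an exact p of 0.2. Its receptor genes Npy1r (0.02 ± 0.18), Npy2r (-0.09 ± 0.20) and Npy5r (-0.46 ± 0.26) had no unadjusted p under 0.05. Of the 15 tested interneuron markers, Npy included, 9 had a negative and 6 a positive log2 fold change, and Npy alone had an unadjusted p under 0.05. The negative values included Erbb4 (-0.29 ± 0.14), Gad1 (-0.29 ± 0.15) and Lhx6 (-0.35 ± 0.30), and the positive ones Sst (0.05 ± 0.13), Vip (0.07 ± 0.17) and Gad2 (0.13 ± 0.21). Of 17 tested precursor genes Npy was the only member with an unadjusted p under 0.05, and their median log2 fold change was -0.02. Crh, the precursor of corticotropin-releasing hormone, was low in this tissue and gave -0.02 ± 0.32.

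**Figure D2:**
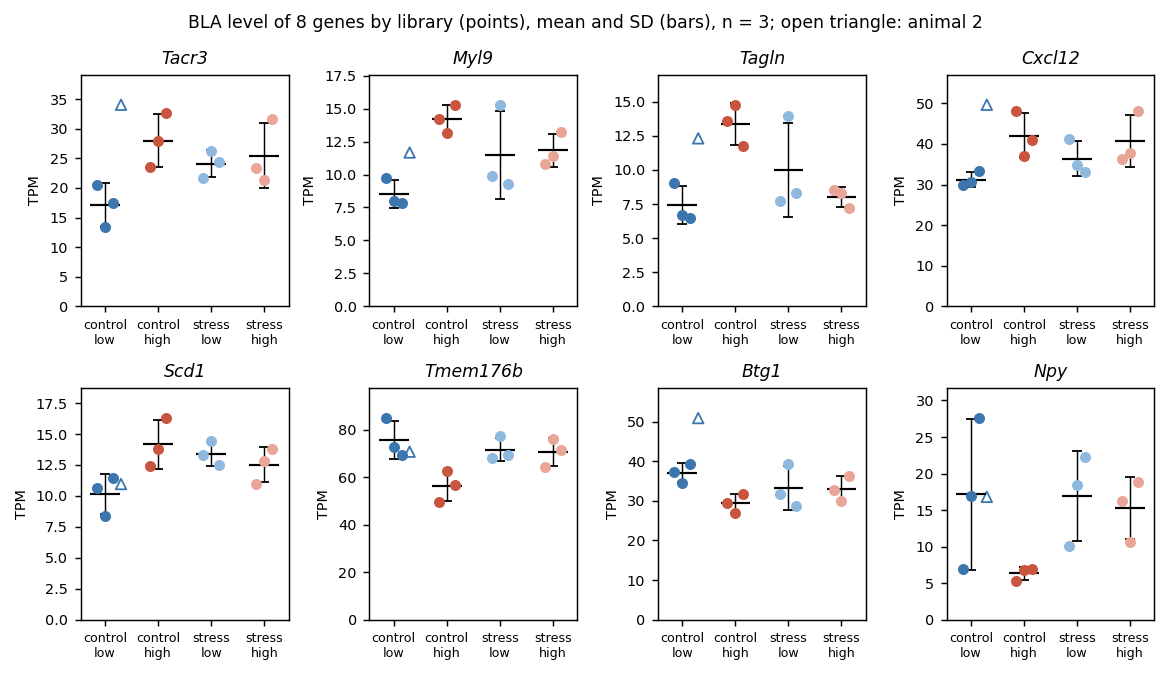
TPM (vertical axes, linear from 0) of 8 genes in each BLA library of the 4 groups (horizontal axes), as points with the mean and SD of 3 libraries, and with animal 2, which was left out of the fit, as an open triangle. In Tacr3, Myl9, Tagln, Cxcl12 and Scd1 the 3 control-high points lie above the 3 control-low points, in Tmem176b and Btg1 they lie below, and in Npy animal 27 lies among the control-high animals.

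Contractile genes of vascular smooth muscle formed a small group among the genes that were higher in control-high. Tagln, which encodes the actin-binding protein transgelin, was at 9.01, 6.72 and 6.49 TPM in control-low and at 13.6, 14.8 and 11.8 TPM in control-high. The log2 fold change of Tagln was 0.84 ± 0.21 (unadjusted p = 0.0013, edgeR). Myl9, the regulatory light chain of smooth muscle myosin, was at 9.76, 7.96 and 7.87 TPM against 14.2, 13.2 and 15.3 TPM, a log2 fold change of 0.72 ± 0.16 (unadjusted p = 0.0004, edgeR). Myh11, the smooth muscle myosin heavy chain, was examined after these values were seen, and stood at 4.06, 2.44 and 2.91 TPM against 5.42, 5.68 and 5.01 TPM (0.77 ± 0.22). None of the 3 genes overlapped between the groups, as was so for 6.03% of all genes. Without animal 35 their log2 fold changes were 0.77, 0.67 and 0.73. Animal 2 stood at 12.3, 11.7 and 4.05 TPM of Tagln, Myl9 and Myh11, so that Tagln overlapped once it was included.

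A set of 12 tested smooth muscle genes was assembled after these values were seen. The 3 genes above, which prompted the set, were its members with an unadjusted p under 0.05 (3.47% of all genes), and the median log2 fold change was 0.10. Mylk, the kinase that activates the light chain, gave 0.14 ± 0.10, desmin (Des) 0.35 ± 0.25, Tpm2 0.22 ± 0.17, Smtn -0.04 ± 0.21, Flna -0.05 ± 0.15, and the mural receptor gene Notch3 -0.02 ± 0.14. Of the 12 tested endothelial and mural markers 10 were positive, with a median of 0.12. The groups did not overlap for 3 of the 12 (6.03% of all genes), Tagln included. Positive members beside Tagln included Pecam1 (0.26 ± 0.13) and Kdr (0.32 ± 0.21) of endothelium and Cldn5 of endothelial tight junctions (0.21 ± 0.16). Flt1 (0.08 ± 0.13) and Rgs5 of pericytes (0.19 ± 0.20) were also positive. The 2 negative members were Slco1a4 (-0.10 ± 0.15) and Vtn (-0.09 ± 0.16). Summed endothelial and mural markers were at 220, 211 and 188 TPM in control-low and at 240, 214 and 248 TPM in control-high, which overlapped. Tagln was the only 1 of 12 tested members of this list with an unadjusted p under 0.05. Cxcl12, a chemokine gene of vascular and stromal cells and some neurons, was at 29.9, 30.6 and 33.3 TPM against 48.1, 37.1 and 40.9 TPM, a log2 fold change of 0.44 ± 0.10 (unadjusted p = 0.0008, edgeR). Its receptor gene Cxcr4 gave 0.20 ± 0.48. Animal 2 stood at 49.65 TPM of Cxcl12, above every control-high library, and with that library the log2 fold change of Cxcl12 was 0.29.

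Some genes known from microglia and other myeloid cells were lower in every control-high library. Laptm5, a lysosomal membrane protein gene of blood-derived and microglial cells, was at 25.0, 22.2 and 18.7 TPM in control-low and at 16.6, 17.1 and 18.0 TPM in control-high (log2 fold change -0.37 ± 0.11, unadjusted p = 0.0044, edgeR). Bin2, which encodes a membrane-curving protein of the same cells, was at 11.4, 9.22 and 8.86 TPM against 8.25, 6.49 and 8.08 TPM (-0.38 ± 0.11). Cd53, a leukocyte tetraspanin gene examined after its values were seen, was at 6.71, 7.70 and 7.37 TPM against 5.39, 4.43 and 5.99 TPM (-0.49 ± 0.15). The groups did not overlap for any of these 3 genes, which were chosen on their values. The same held for 6.03% of all genes.

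The groups did not overlap for 1 of the 14 tested microglial markers (6.03% of all genes). Of the 14 markers 13 had a negative log2 fold change, with a median of -0.21, but 1 had an unadjusted p under 0.05 (3.47% of all genes). That gene was Csf1r, the receptor on which microglial survival depends, at 59.8, 42.7 and 41.6 TPM against 40.6, 36.3 and 43.6 TPM (-0.27 ± 0.10, unadjusted p = 0.0169, edgeR). Its groups overlapped, and animal 27 was the highest library. The markers Aif1 (-0.35 ± 0.18), P2ry12 (-0.49 ± 0.26) and Ctss (-0.31 ± 0.17) gave larger values with larger errors, while Tmem119 gave 0.12 ± 0.11. Summed microglial markers were at 702, 597 and 505 TPM in control-low and at 523, 462 and 552 TPM in control-high, which overlapped, and the list median was -0.14 without animal 27. Tmem176b, which encodes a membrane channel protein found in antigen-presenting cells among others, was at 84.9, 72.5 and 69.5 TPM against 49.7, 62.5 and 56.8 TPM (-0.44 ± 0.10, unadjusted p = 0.0006, edgeR). The whole control-high group lay below the control-low group.

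Hemoglobin transcripts moved with these genes. Hba1 was at 374, 297 and 268 TPM in control-low and at 264, 193 and 237 TPM in control-high (-0.45 ± 0.14, unadjusted p = 0.0063, edgeR), and Hbb at 139, 160 and 154 TPM against 133, 95.0 and 133 TPM (-0.35 ± 0.16). Both were lower in every control-high library. They were the 2 of 5 tested red blood cell markers without overlap between the groups (6.03% of all genes). The same 2 had an unadjusted p under 0.05 (3.47% of all genes), and 4 of 5 markers had a negative value. Summed red blood cell markers were at 740, 592 and 560 TPM against 561, 415 and 500 TPM, so that animals 35 and 14 were level. Leaving out animal 27 took the median of this list from -0.30 to -0.03. The part of blood content in the myeloid values was not tested.

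Several single genes of metabolism and growth control stood among the 24 genes of smallest p. Scd1, which encodes the desaturase that makes monounsaturated fatty acids, was at 10.6, 8.34 and 11.5 TPM in control-low and at 12.4, 13.8 and 16.3 TPM in control-high (0.47 ± 0.10, unadjusted p = 0.0006, edgeR). A set of 12 tested genes of fatty acid and sterol synthesis was assembled after the values were seen. Scd1, already chosen by its p, was its only member with an unadjusted p under 0.05 (3.47% of all genes). Of the 12 genes 11 were positive, with a median of 0.11. Fasn gave 0.12 ± 0.08 and Acly 0.13 ± 0.06. Kctd15, which encodes a BTB-domain repressor protein, was at 13.6, 10.4 and 11.3 TPM against 16.4, 14.9 and 14.9 TPM (0.38 ± 0.09). Tmem44, a membrane protein gene, was at 16.2, 16.3 and 17.7 TPM against 19.9, 24.9 and 25.2 TPM (0.43 ± 0.12). RGD1559938 was at 6.59 ± 0.68 TPM against 10.6 ± 1.36 TPM. RGD1565566 rested on animals 17 and 32 (37.0 and 29.1 TPM), since animal 14 (3.58 TPM) lay within the control-low range of 1.97 to 6.58 TPM.

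Retinoic acid-degrading enzymes were looked at after their values were seen. Cyp26b1 was at 68.3, 70.3 and 83.6 TPM in control-low and at 99.0, 88.9 and 101 TPM in control-high (0.35 ± 0.10, unadjusted p = 0.0046, edgeR), and Cyp26c1 at 1.21, 1 and 1.19 TPM against 1.81, 2.02 and 2.23 TPM (0.82 ± 0.24). Neither overlapped between the 3 and 3 animals, as was so for 6.03% of all genes. The third member, Cyp26a1, gave 0.19 ± 0.15, and the retinoid uptake receptor gene Stra6 was at 1.04 ± 0.11 against 0.60 ± 0.06 TPM (-0.83 ± 0.36). In a set of 17 tested retinoid genes, assembled after these values were seen, the median was 0.00. Cyp26b1, Cyp26c1 and Stra6 were its members with an unadjusted p under 0.05 (3.47% of all genes). Animal 2 had 129 TPM of Cyp26b1, more than any control-high animal, and with it the log2 fold change was 0.18.

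On the lower side, Btg1, an anti-proliferative gene, was at 37.2, 34.6 and 39.4 TPM in control-low and at 29.5, 26.9 and 31.7 TPM in control-high (-0.35 ± 0.10, unadjusted p = 0.0028, edgeR). Pcna, the sliding clamp of DNA polymerase, was at 38.1, 36.2 and 34.3 TPM against 27.7, 27.4 and 33.4 TPM (-0.31 ± 0.09). The actin-linked regulator of mTORC1 kaptin (KPTN) was at 34.6, 25.8 and 27.0 TPM against 20.9, 24.9 and 23.9 TPM (-0.34 ± 0.10, unadjusted p = 0.0035, edgeR). Those 3 genes, chosen by their p, did not overlap between the groups, as was so for 6.03% of all genes. The ETS-family factor gene Etv4 was at 6.96 ± 1.92 against 4.18 ± 0.47 TPM (-0.74 ± 0.20), and -0.52 without animal 35. Anxa3, an annexin gene, overlapped between the groups at 48.9 ± 8.54 against 38.5 ± 4.79 TPM (-0.36 ± 0.10). Tceanc (1.56 ± 0.23 against 0.51 ± 0.16 TPM) and the myosin-binding protein gene Mybpc1 (0.46 ± 0.28 against 0.10 ± 0.04 TPM) were near the lower end of detection.

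Part of the largest values came from names with more than 1 gene model in the annotation, between which reads can be divided differently in each library. Psmb6, a proteasome subunit gene, had the smallest p of all named models. This model was at 7.62, 5.52 and 6.49 TPM in control-low and at 13.2, 31.0 and 21.2 TPM in control-high (log2 fold change 1.71 ± 0.31, unadjusted p = 8.35e-05, edgeR; adjusted p = 0.000343 in DESeq2, and 0.000343 to 1 over all alternatives). The other model of the name, PSMB6, held most of the reads, at 121 to 149 TPM in control-low and 106 to 125 TPM in control-high. When models of the same name were summed, the log2 fold change of Psmb6 was -0.07, a value on the other side of 0.

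The same held for DR1, a transcriptional repressor (0.90 ± 0.20 as a single model and -0.06 summed), and for Rps9 of the small ribosomal subunit (2.12 ± 0.53 and 0.03). A model of ATP5F1, a subunit of ATP synthase, gave 1.53 ± 0.46 alone and -0.00 summed, and a model of NDUFS5, a complex I subunit, -0.43 ± 0.14 and -0.02. Katnal1, looked at after its values were seen, gave 2.33 ± 0.65 alone and a smaller 0.19 ± 0.08 summed (unadjusted p = 0.0266, edgeR). Ybx1, an RNA-binding protein gene with 3 models, kept -0.21 of -0.27, and both models of the heat shock gene Hspa1b, which carried identical values (2.50 ± 0.27 against 3.54 ± 0.43 TPM), gave 0.48 when summed. Among the 24 genes of smallest p, 20 had a single model.

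**Figure D3:**
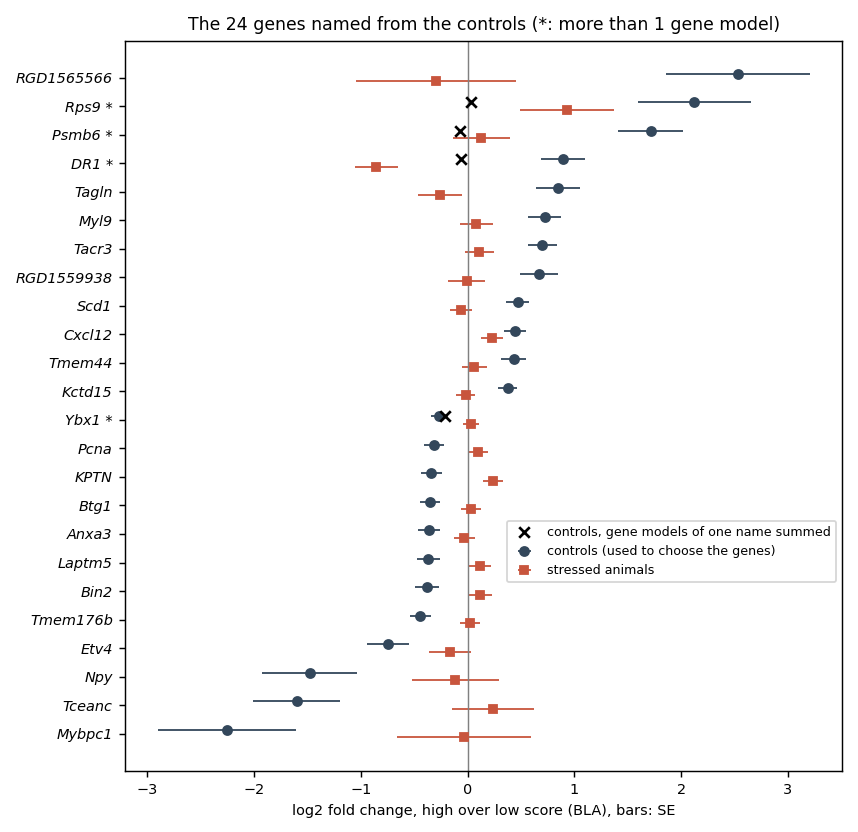
Log2 fold change with its standard error (horizontal axis) of the 24 genes of smallest unadjusted p (vertical axis) for control-high over control-low (circles) and stress-high over stress-low (squares), with the value after summing gene models that share a name (crosses). The circles are the values that chose the genes, the squares lie mostly near 0, and the crosses of Psmb6, DR1 and Rps9 lie at -0.07, -0.06 and 0.03.

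The score difference was also set beside that of the stressed animals, which share no library with the controls. In stress-high against stress-low animals 289 genes (1.9%) had an unadjusted p under 0.05, and the test of the difference between both score differences called 0 genes at an adjusted p under 0.05 and 349 (2.29%) at an unadjusted p under 0.05 (edgeR; 0 adjusted calls in DESeq2 and 2 by limma). Across the 15230 genes, which are not independent of each other, 52.6% had the same sign in both differences, and Pearson's r was 0.01. The 22 genes with an unadjusted p under 0.05 in both were 4.17% of those in the controls and 7.61% of those in the stressed animals, and 14 of the 22 shared their sign.

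Of the 24 genes chosen in the controls, 10 had the same sign in the stressed animals. The median size of the log2 fold change was 0.45 in the controls, where the genes were chosen, and 0.11 in the stressed animals, over the 20 genes with a single model. Tacr3 was at 21.7, 26.3 and 24.4 TPM in stress-low and at 23.4, 21.3 and 31.7 TPM in stress-high (0.11 ± 0.14). Npy was at 10.1, 18.5 and 22.2 TPM against 16.3, 10.7 and 18.9 TPM (-0.12 ± 0.41), and Tagln at 7.70, 14.0 and 8.31 TPM against 8.55, 8.33 and 7.19 TPM (-0.26 ± 0.21). In these 3 genes the stress-low and stress-high libraries overlapped. An unadjusted p under 0.05 was seen in the stressed animals for 3 of the 24. Cxcl12 gave 0.23 ± 0.10 in the same direction as in the controls, and KPTN (0.24 ± 0.10) and the DR1 model (-0.86 ± 0.20) gave the opposite direction.

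In the DG 513 of 14287 genes (3.59%) had an unadjusted p under 0.05 between control-high and control-low. Of 23 of the 24 genes that could be tested there, 14 had the sign of the BLA and 2 had an unadjusted p under 0.05. KPTN was at 43.2 and 36.8 TPM in DG control-low animals 2 and 28 and at 27.9, 31.1 and 26.7 TPM in control-high animals 14, 17 and 32 (-0.47 ± 0.10, unadjusted p = 0.0006, edgeR). This was the same direction as in the BLA, in libraries from 4 animals that were also in the BLA comparison. RGD1565566 was listed at 0.42 and 0.35 TPM in DG control-low and at 0, 7.92 and 8.33 TPM in control-high, again high in animals 17 and 32 and low in animal 14. Tacr3 was barely present in the DG, at 0.05 to 0.85 TPM. A single DG gene, the olfactory receptor gene Olr1462, had an adjusted p under 0.05 (0.0206, edgeR; 32.5 and 38.6 TPM against 11.7, 9.60 and 13.4 TPM), and leaving out any single control-high library gave 0 calls.

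Cell type content was read from marker lists. The list median farthest from 0 belonged to the markers of striatal and central amygdala neurons, at -0.41, with 17 of 18 tested members negative and 0 with an unadjusted p under 0.05. Their summed level was 470, 423 and 1122 TPM in animals 27, 28 and 35, and 574, 499 and 497 TPM in animals 14, 17 and 32. Animal 35 alone was high, and without it the median was 0.06. PENK, the enkephalin precursor gene, followed this library (log2 fold change -0.34 ± 0.42, and 0.39 without animal 35), as did the dopamine signaling gene Ppp1r1b (-0.48 ± 0.31, and 0.06) and Adora2a (-1.54 ± 0.98, and 0.70). Animal 2, left out, had 2005 TPM of the same markers. All 18 oligodendrocyte markers were negative with a median of -0.15 and overlapping sums (3257 to 3749 TPM against 2780 to 3501 TPM), and Ermn was the member with an unadjusted p under 0.05 (-0.39 ± 0.16). Glutamatergic projection neuron markers had a median of 0.17 over 11 genes, interneuron markers -0.13 over 15, and astrocyte markers 0.07 over 12, with no member under 0.05 in unadjusted p apart from Npy. Leptomeningeal fibroblast markers (median -0.23 over 9, and 0.25 without animal 35) held Igf2 as such a member. The 4 claustrum and endopiriform markers (0.19), the 4 oligodendrocyte precursor markers (0.05), the 3 dentate granule cell markers (-0.03) and the single tested choroid plexus marker Kl held none.

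**Figure D4:**
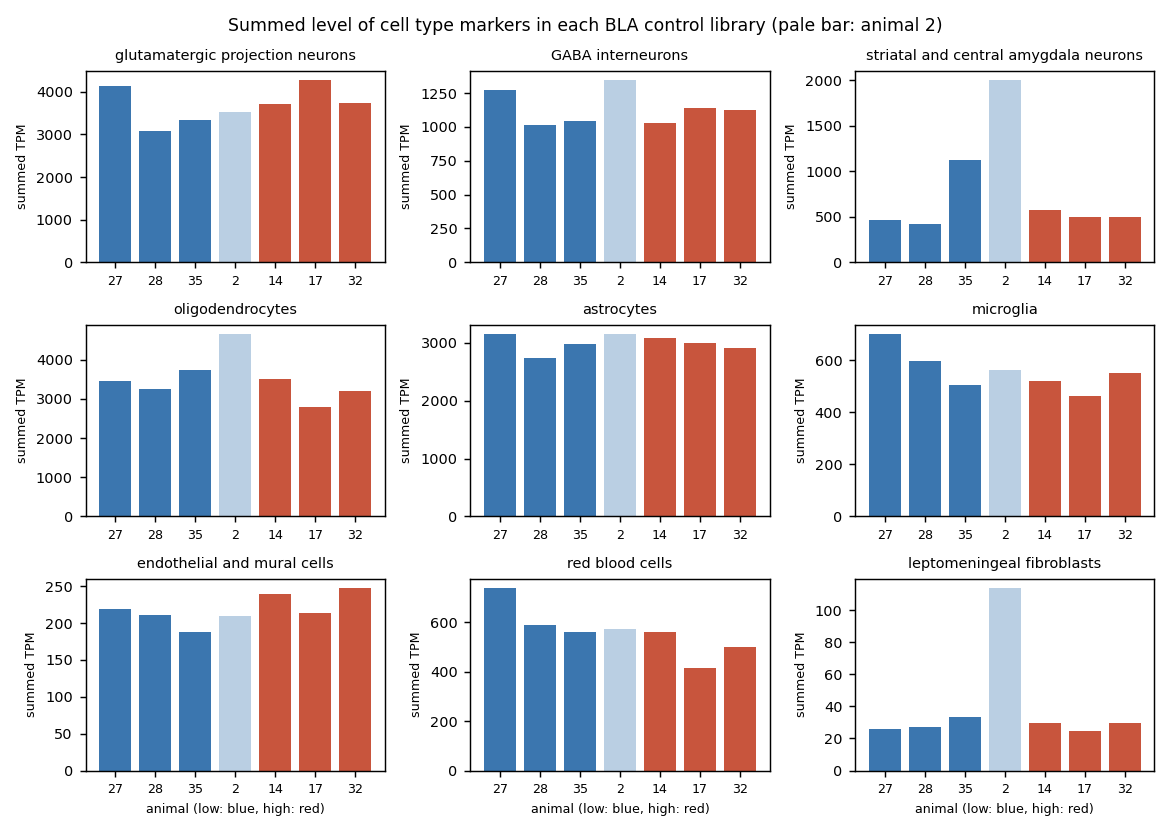
Summed TPM (vertical axes, from 0) of 9 cell type marker lists in each BLA control library (horizontal axes, by animal number), with control-low in blue, control-high in red and animal 2 as a pale bar. The striatal and central amygdala sum stands at 1122 TPM in animal 35 and at 423 to 574 TPM in the other 5 libraries, while the sums of the neuron and glia lists overlap between the groups.

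Genes of stress and plasticity pathways differed little between the labels. Of 18 tested corticosteroid receptor and glucocorticoid-induced genes, 0 had an unadjusted p under 0.05, and the median was 0.00. Fkbp5, the glucocorticoid-induced chaperone of the receptor, gave 0.02 ± 0.09, Nr3c2 of the mineralocorticoid receptor 0.07 ± 0.09, and Sgk1 -0.32 ± 0.16. The 18 immediate early genes, which report recent neuronal activity, had a median of 0.02 and 0 members with an unadjusted p under 0.05. Egr1 was at 51.3 ± 9.03 against 48.2 ± 2.00 TPM, and Arc gave -0.00 ± 0.20. The 14 GABA-A receptor subunits (median 0.03), the 22 glutamate receptors (0.01), the 6 neurotrophin genes (0.02; Bdnf 0.27 ± 0.24), the 7 endocannabinoid genes (0.04; Cnr1 0.12 ± 0.11), the 14 perineuronal net genes (0.03) and the 16 circadian clock genes (-0.08) held 0 such members each.

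Insulin and insulin-like growth factor genes had 2 of 19 members with an unadjusted p under 0.05, both higher in control-high (1.67% of all genes). Igf2, made by vessel-associated and meningeal cells, was at 4.90, 3.94 and 3.75 TPM against 5.52, 6.55 and 6.16 TPM (0.51 ± 0.17, unadjusted p = 0.0099, edgeR). Igfbp3, which binds these factors, was at 6.00, 5.01 and 5.69 TPM against 7.01, 7.41 and 6.71 TPM (0.33 ± 0.13). Both were higher in every control-high animal, but animal 2 had 7.90 and 14.1 TPM, and with it the log2 fold changes were 0.29 and -0.06. Stressed animals had the opposite sign for Igf2 (-0.54 ± 0.17). The receptor genes Insr (0.00 ± 0.08) and Igf1r (-0.04 ± 0.08) gave values below their errors, and the list median was -0.01.

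Of 80 tested potassium channel genes 3 had an unadjusted p under 0.05, which is 3.75% against 3.47% of all genes. They were Kcnq3 of the M current (0.25 ± 0.10), Kcnj9 of G protein-gated channels (0.27 ± 0.10) and the beta subunit gene Kcnab3 (-0.42 ± 0.15). Of 25 synaptic vesicle fusion genes Rab3a (732 ± 55.8 against 817 ± 31.2 TPM, 0.14 ± 0.07) and Cplx2 (168 ± 19.1 against 146 ± 12.8 TPM, -0.21 ± 0.10) were the 2 with an unadjusted p under 0.05. Among 20 monoamine receptors the adrenergic receptor gene Adra2a (-0.36 ± 0.14) was the only 1. The 85 nuclear respiratory chain genes had 6, of which the ATP5F1 and NDUFS5 models are described above, and Ndufb6 (-0.19 ± 0.08), the assembly factors Ndufaf1 (-0.24 ± 0.10) and Ndufaf4 (-0.22 ± 0.10) and the isoform gene Cox6b2 (0.53 ± 0.23) are the rest. The 106 cytosolic ribosomal protein models had 2, a model of Rps9 and Rpl30 (-0.29 ± 0.13), the 18 heat shock models had the 2 of Hspa1b, and the 9 mitochondrially encoded genes had 0 with a median of -0.18.

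**Figure D5:**
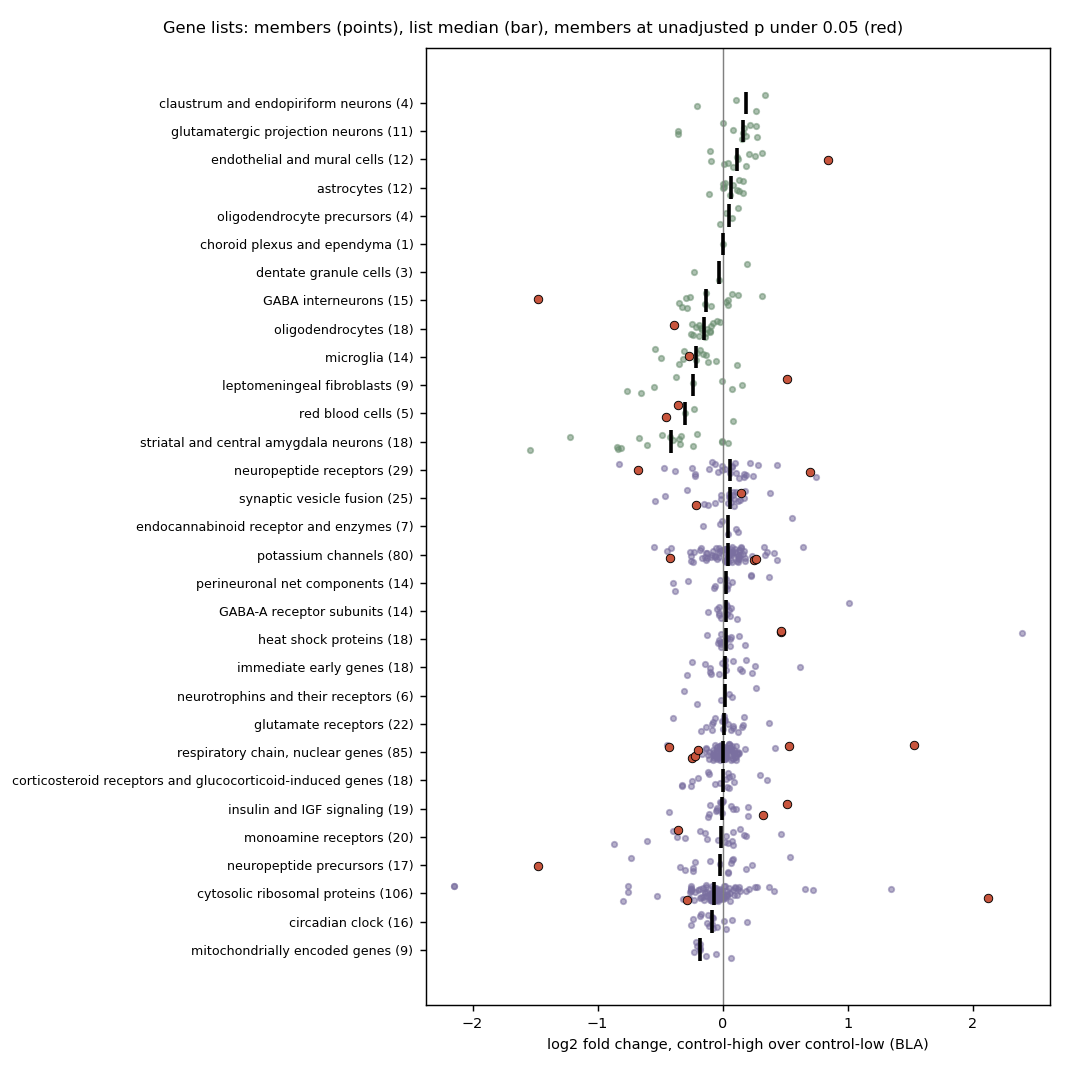
Log2 fold change of control-high over control-low (horizontal axis) for each tested member (points) of 31 gene lists (vertical axis, number tested in brackets, cell types in green above functional lists in purple), with the list median as a bar and members with an unadjusted p under 0.05 in red. Most medians lie close to 0, and the striatal and central amygdala markers lie lowest at -0.41.

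Besides Tacr3 and the Psmb6 model, the genes called in the BLA under another fit included some that rested on few libraries or few reads. The unnamed model ENSRNOG00000030704, called by DESeq2, was at 0 TPM in animals 27, 28, 35 and 14 and at 7.42 and 5.18 TPM in animals 17 and 32. Map3k7, a kinase gene of cytokine signaling, was called when the animal number was a covariate, a fit that compares animal 32 alone with control-low. It was low in that animal alone (4.36 TPM, against 19.0 to 24.2 TPM in the other 5 libraries). A microRNA precursor gene, Mir568, was called by limma at a pseudocount of 0.1, at 8.31, 3.63 and 4.60 TPM in control-low and 0 TPM in every control-high library, which stood for 4, 2 and 2 reads. ENSRNOG00000047225, the 1 gene called without animal 35, was at 176.4 and 70.96 TPM in animals 27 and 28 and at 0 TPM in animal 35 and the control-high libraries. Except for the DESeq2 call, these genes were named after their values were seen.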

How the data were processed

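The authors aligned reads with STAR 2.6.0a and quantified genes with RSEM 1.3.1, per the labels and the study's methods, and each deposited table lists, by gene and library, the RSEM expected count beside its TPM. Reads that match several genes are divided by estimation, so gene models that share a name can trade reads. For the tests, values were rounded to whole numbers and fitted in edgeR 4.0.16 (quasi-likelihood test, TMM scaling, low-count filter with a minimum count of 10, Benjamini-Hochberg adjustment) as 4 group means over 12 BLA libraries. The study pooled its controls and used another tool. DG libraries were fitted separately. DESeq2 1.42.0, limma 3.58.1 on log2(TPM + 1) and log2(TPM + 0.1), other scalings and filters, a replicate block and the omission of each library were alternatives. Levels are deposited TPM, shown as mean ± SD. Named genes were the 12 of smallest p in each direction with a gene name, and list members with an unadjusted p under 0.05. DESeq2 calls and some list members of highest TPM were added. Several genes are said to be chosen after their values were seen. Further list and set members, such as Crhr1, Lhx6, Kdr and Aif1, were named outside this rule with their values known. The comparison, the rule and the gene lists were chosen with earlier results of these data known.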

Additional observations from a re-analysis of the deposited data

Results flagged for a closer look

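Among 84 values checked in the 4 BLA control-low libraries, 6 had 1 library set far from the other 3 by Dixon's criterion, and all 6 were from animal 2, the library left out of the fit. Chance sets apart about 1 in 20 such groups, but that rate is no guide here, since animal 2 had been left out as an outlier and many of the genes were chosen on the other 3 libraries. The Psmb6 model was at 25.09 TPM in animal 2 against 5.52 to 7.62 TPM in the other control-low animals, and Tmem44 at 25.05 against 16.24 to 17.71 TPM. Igfbp3 was at 14.06 against 5.01 to 6 TPM, and both models of Hspa1b, which hold identical values and count as 2 of the 6, were at 5.57 against 2.19 to 2.67 TPM. The summed leptomeningeal fibroblast markers were at 113.75 against 26.05 to 33.41 TPM, and their part in the other values of this library was not tested.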

How the results depend on the processing

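The number of BLA genes called was 3 with DESeq2, 1 with limma on log2(TPM + 0.1) and 0 to 1 when each library was left out in turn. The count at an unadjusted p under 0.05 was 530 to 872 in those refits, and the highest was without control-low animal 27. The test of the difference between stressed and control animals called 2 genes with limma at either pseudocount after the filter on low values, and 0 at a pseudocount of 1 without that filter. In the DG, DESeq2 called 5 genes, all mapped libraries gave 0, and leaving out a control-high library gave 0 each time. When gene models of the same name were summed, the log2 fold change was -0.0685 for Psmb6, -0.0603 for DR1 and -0.0033 for ATP5F1, and with animal 2 it was -0.0609 for Igfbp3. The cause of the other shifts was not tested. Over 53 named genes and 18 alternatives, 3 values passed the adjusted threshold of 0.05, 4 changed sign and 890 did neither. Since none passed that threshold in the edgeR fit and the genes were chosen on their values, the 890 are no independent support. Of the 528 genes with an unadjusted p under 0.05, 253 to 325 kept one when a single library was left out. Of the list medians, 16 moved by more than the spread between libraries and 263 did not.

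With the replicate block, 0 genes were called and 538 had an unadjusted p under 0.05, of which 250 were among the 528. Control-low and control-high share only replicate numbers 2 and 3, whose libraries correlated at 0.099 and 0.19 in their deviations, and no label ties the numbers to a shared batch.

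All 3 control-low animals have numbers above 20, against 1 of 3 control-high animals, and what the numbers stand for is not given in the sources used here. All stress-low animals and no stress-high animal also have numbers above 20, so the number differs within a group only in control-high. With that covariate the comparison therefore set animal 32 alone against control-low, and it cannot separate the number from the score label. Depth limits genes of under about 1 TPM, such as Hcrtr2 and Mybpc1, which rest on few reads.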
